A study of Mus musculus with 12 samples.

Results

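Polysomal RNA is the RNA that sediments with several ribosomes at once, and its response to rosiglitazone (Rosi) was described here in 6 of the 12 libraries of the series, those of the pooled polysome fractions. These were 3 libraries of polysome Rosi and 3 of polysome Veh, chosen by their titles and not by any measured value. The titles give only the tissue for these libraries, and they were taken as the polysome pool because the remaining ones are called input. The cells were the stromal vascular fraction (SVF) of epididymal fat from male Lepob/Lepob (ob/ob) mice at 12 weeks of age, which lack leptin and become obese. In polysome Rosi, the cells had been given a cocktail of 0.5 mM IBMX, 1 µM dexamethasone and 5 µg/mL insulin together with 1 µM Rosi for 2 days, then insulin and Rosi for 2 days. In polysome Veh, they had been given the same cocktail and insulin with the DMSO vehicle, so that the comparison is of Rosi on top of an adipogenic stimulus that all groups shared. On day 4 all cells received fresh medium for 1 h and cycloheximide, which holds ribosomes on the mRNA, at 100 µg/mL for the last 5 min. Their lysates were then run on sucrose gradients of 5 to 50%, and the heavy fractions were pooled. The sources differ on their lower limit, given as 3 or more ribosomes per mRNA in the design text and as more than 3 in the methods, and on the time of differentiation, given as 3 days in the design text and 4 in the protocols, which were followed here. The input libraries, of total RNA from the same groups, are used below only to set the polysome values beside them.

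Rosi is a ligand of PPARγ, the nuclear receptor that, paired with RXR, drives the genes of lipid storage and of the adipocyte hormones during fat cell differentiation. An mRNA on which many ribosomes travel is being read into protein by all of them, so the RNA of heavy polysomes is the part of the transcript pool with the highest ribosome load. Its amount depends both on how much of the mRNA a cell holds and on the share of it that is on polysomes. The question addressed by the comparison is which mRNAs were more or less abundant on polysomes when differentiation was carried out with Rosi.

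The polysome libraries held 18.5 to 22.4 M estimated reads. The SVF is a mixture, and the pool held mRNA of several cell types: the 27 macrophage markers listed summed to 20488 to 25931 CPM (reads scaled to the size of each library) in polysome Veh, the 13 markers of smooth muscle and pericytes to 9972 to 10662 CPM, and the 15 progenitor markers to 1249 to 1509 CPM. Progenitors were thus represented, with Pdgfra, the receptor that marks them, at 94.2 ± 11.9 CPM in polysome Veh and 94.7 ± 1.30 CPM in polysome Rosi (SD, n = 3), while lymphocyte markers summed to at most 1.65 CPM and 8 of those 13 were at 0, among them Cd3e and Cd79a. In bulk RNA, fewer cells of a type and less RNA per cell cannot be told apart. The first principal component of the 6 libraries held 37.8% of the variance and did not follow treatment, with polysome Veh replicate 1 at −18.2 and polysome Rosi replicate 3 at −15.5 apart from polysome Veh replicate 3 at 21.7. The second held 28.6% and placed the Veh libraries between 2.20 and 17.4 and the Rosi libraries between −15.3 and −8.53.

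Rosi raised 85 genes on polysomes and lowered 3, out of 13436 tested. The call required an adjusted p under 0.05 in edgeR's quasi-likelihood test together with an absolute log2 fold change over 0.2, which was met by 0.655% of the genes tested, by 0.633% as a rise and by 0.0223% as a fall. The median log2 fold change of Rosi over Veh was −0.01 over all tested genes and 2.08 over the 85 raised genes. In every called gene the 3 Rosi libraries lay on 1 side of the 3 Veh libraries, which was also true of 8.95% of all tested genes (4.58% with Rosi above, 4.37% with Rosi below). The number of calls moved with the libraries. Without polysome Veh replicate 1 the call covered 179 genes (125 raised, 54 lowered, 84 of them shared with the 88), without polysome Veh replicate 2 it covered 55 (all raised), and 54 of the 88 genes were called whichever of the 6 libraries was left out. The labels call the libraries biological replicates without naming separate animals or cultures, so a p-value here speaks only of the spread among these libraries.

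**Figure D1:**
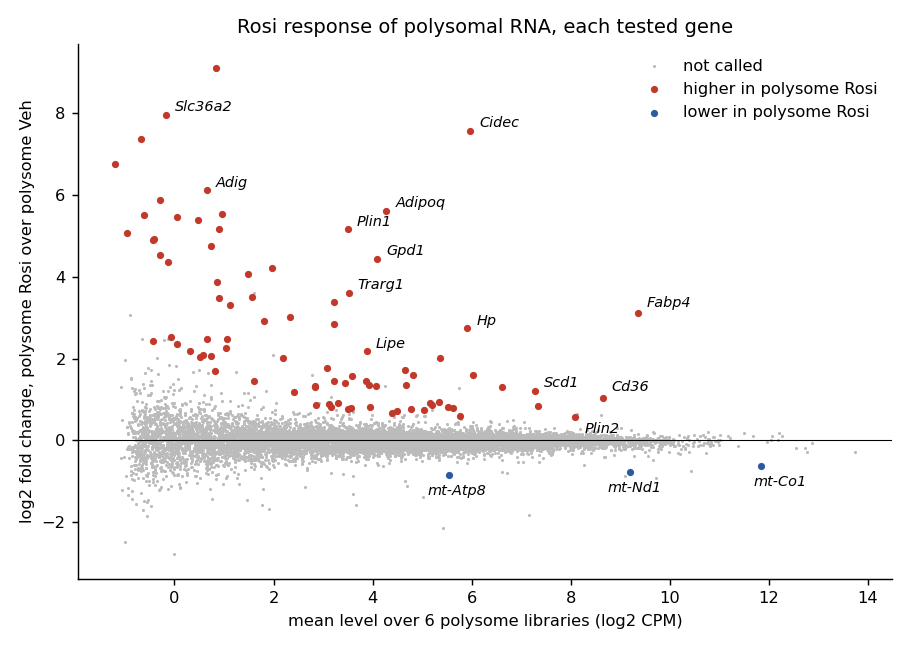
Each point is 1 of the 13436 genes tested, with its mean level over the 6 polysome libraries on the horizontal axis (log2 CPM) and the log2 fold change of polysome Rosi over polysome Veh on the vertical axis. The 85 raised genes (red) reach from under 1 CPM to Fabp4, while the 3 lowered genes (blue) are mitochondrially encoded.

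The raised mRNAs were a small share of the polysome pool in Veh and a larger share in Rosi. Summed as TPM, a scale per transcript length, the 85 genes made up 0.116 to 0.122% of the pool in the 3 Veh libraries and 0.445 to 0.493% in the 3 Rosi libraries. Fabp4, the fatty acid carrier of the adipocyte cytosol (chromosome 3, 10204088 to 10208576, mm10), held the largest part of that share in Rosi. It stood at 324, 239 and 254 TPM in polysome Veh and at 2267, 2295 and 2650 TPM in polysome Rosi, which moved it from rank 540 to 700 among all genes to rank 35 to 51. Behind it in Rosi by mean TPM came Mgst1, a glutathione transferase of the endoplasmic reticulum, at 299, Plin2, a coat protein of lipid droplets, at 279, Cd36, which takes up fatty acids, at 266, Hp, the plasma protein haptoglobin, at 120, and Cidec, which fuses lipid droplets, at 112. Mgst1, Plin2 and Cd36 were already at 159, 183 and 128 TPM in polysome Veh, whereas Cidec was at 0.685.

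Among genes with reads in every Veh library, the largest log2 fold change was that of a lipid droplet protein, Cidec. Of the 18 lipid droplet genes tested, 7 rose (38.9%, against 0.655% of all tested genes called) and none fell. Their median log2 fold change was 0.35 against −0.01 over all genes. Cidec (chromosome 6, 113424634 to 113435760) read 0.729, 0.467 and 0.732 CPM in the Veh libraries and 138, 104 and 122 CPM in the Rosi libraries. The groups were far apart, with a log2 fold change of 7.55 ± 0.20 (SE) and an adjusted p of 3.01e-10. Plin1, which guards the droplet surface against lipases, read 0.364, 0.935 and 0.418 CPM in Veh and 23.1, 19.8 and 20.5 CPM in Rosi (5.15 ± 0.25, adjusted p = 1.02e-07). Plin4, a droplet coat of maturing adipocytes, was the uneven member: it read 0.625, 0.467 and 0 CPM in Veh and 5.91, 3.73 and 11.5 CPM in Rosi (4.22 ± 0.58, adjusted p = 0.00221), and every Rosi library was above every Veh library. G0s2, an inhibitor of adipose triglyceride lipase, varied little within each group, at 2.29, 2.06 and 2.09 CPM in Veh and 15.6, 15.1 and 16.2 CPM in Rosi (2.85 ± 0.16, adjusted p = 4.33e-07).

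Plin2 behaved differently from Plin1 and Cidec in that it was abundant without the drug. It read 195, 241 and 196 CPM in Veh and 300, 330 and 325 CPM in Rosi, a log2 fold change of 0.58 ± 0.11 (adjusted p = 0.0349), the smallest of any raised gene. Its call was lost in 4 of the 6 fits that left out a library, with an adjusted p of up to 0.226 without polysome Rosi replicate 2. Plin2 is also made by lipid-loaded macrophages. Fitm2, a protein of the endoplasmic reticulum that buds droplets, rose from 14.7, 16.1 and 18.3 CPM to 29.0, 26.4 and 26.5 CPM (0.73 ± 0.12, adjusted p = 0.0109), and its call was lost in 3 fits, with an adjusted p of up to 0.0810 without polysome Veh replicate 2. Leaving out libraries gave between 5 and 8 called lipid droplet genes.

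Some adipocyte mRNAs of low abundance had almost no reads in Veh. Lgals12, a galectin of the droplet, was covered by 3 reads in polysome Veh replicate 1 and by none in the other Veh libraries, against 50, 60 and 48 reads in Rosi, a ratio of 47.2 with a 95% exact interval of 15.9 to 231. Adig, a small membrane protein of adipocytes, was covered by 2 reads in polysome Veh replicate 2 and by none in the others, against 72, 55 and 55 reads in Rosi, a ratio of 81.6 (22.3 to 679). Aqp7, the channel through which glycerol leaves the adipocyte, followed the same course with 2 reads in polysome Veh replicate 1, none in the other Veh libraries and 19, 27 and 32 reads in Rosi, a ratio of 35.0 (9.36 to 294). The Aqp7 call was lost without polysome Veh replicate 2 (adjusted p = 0.0656).

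PPARγ and RXR bind paired half-sites of the letters AGGTCA, and the promoters of the raised genes were searched for these letters as a description. RefSeq promoter windows (GRCm38.p6, the 250 bases before the start) were at hand for 53 of the 85 raised genes, in 69 windows. The letters AGGTCA, on either strand, were in 10 of the 69 windows (14.5%) and in 14.0% of all 32851 windows, so the raised genes were near the background. A longer string, AGGTCA followed by any base and then AGG, which contains the shorter one, was in 3 of the 69 windows, those of Adig and 2 overlapping ones of Aqp7, and in 184 of all windows (0.560%), on either strand. The windows of Adig, of Aqp7 (the one that starts further upstream), of Plin2 and of Cd36 are shown because these mRNAs span the range from almost no reads to over 200 CPM in Veh. Capitals mark AGGTCA, or TGACCT where it lies on the opposite strand, and each window is written 5′ to 3′ on the strand of its gene.
Adig, chr2:158502362-158502611, plus strand: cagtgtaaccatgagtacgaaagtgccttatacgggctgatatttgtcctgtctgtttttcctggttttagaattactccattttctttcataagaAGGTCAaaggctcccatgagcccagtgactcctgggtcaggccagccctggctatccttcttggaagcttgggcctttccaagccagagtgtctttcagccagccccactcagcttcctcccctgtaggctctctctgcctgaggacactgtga
Aqp7, chr4:41048137-41048386, minus strand: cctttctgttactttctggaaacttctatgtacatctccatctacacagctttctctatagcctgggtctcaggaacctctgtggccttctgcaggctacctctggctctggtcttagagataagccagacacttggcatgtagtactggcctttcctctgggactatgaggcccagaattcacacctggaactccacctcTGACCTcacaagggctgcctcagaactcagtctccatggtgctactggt
Plin2, chr4:86670060-86670309, minus strand: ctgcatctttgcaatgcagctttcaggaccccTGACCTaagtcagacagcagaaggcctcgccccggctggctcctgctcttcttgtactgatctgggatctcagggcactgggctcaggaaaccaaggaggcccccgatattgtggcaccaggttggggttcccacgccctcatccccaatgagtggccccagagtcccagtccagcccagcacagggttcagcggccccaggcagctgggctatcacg
Cd36, chr5:17835897-17836146, minus strand: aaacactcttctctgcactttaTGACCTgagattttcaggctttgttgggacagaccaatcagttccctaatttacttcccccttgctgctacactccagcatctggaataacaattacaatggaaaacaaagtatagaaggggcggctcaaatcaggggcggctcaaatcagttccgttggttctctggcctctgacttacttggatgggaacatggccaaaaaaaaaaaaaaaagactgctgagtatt
The match lay 154 bases before the start in Adig, 49 in this window of Aqp7, 218 in Plin2 and 228 in Cd36. In Adig and Aqp7 it belonged to the longer string. A match is a description of the letters and not a site shown to be bound, and windows without one say nothing about the receptor.

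The mRNAs of the lipases and of the proteins that hold them in check were among the raised genes. Of the 21 lipolysis genes tested, 6 rose (28.6%, against 0.655% of all tested genes called) and none fell, with a median log2 fold change of 0.59. Lipe, the hormone-sensitive lipase, read 3.64, 6.63 and 5.02 CPM in Veh and 25.6, 21.8 and 22.6 CPM in Rosi (2.18 ± 0.19, adjusted p = 4.17e-05). Pnpla2, the adipose triglyceride lipase that starts the breakdown of stored fat, read 43.3, 56.8 and 62.8 CPM in Veh and 145, 123 and 135 CPM in Rosi (1.30 ± 0.14, adjusted p = 0.000232). In both, the lowest Rosi library was well above the highest Veh library. Prkar2b, the regulatory subunit of the kinase that activates Lipe, rose by a smaller step, from 37.9, 31.5 and 34.9 CPM to 63.1, 58.0 and 62.0 CPM (0.80 ± 0.11, adjusted p = 0.00283).

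Pde3b, the phosphodiesterase through which insulin restrains lipolysis, was called at the edge of the threshold. It read 29.0, 22.5 and 19.7 CPM in Veh and 39.8, 35.5 and 45 CPM in Rosi (0.75 ± 0.15, adjusted p = 0.0467), and the call was lost in 5 of the 6 fits that left out a library, with an adjusted p of up to 0.308 without polysome Veh replicate 2. Outside the list, Mrap, which carries the ACTH receptor to the surface, rose from 6.54 to 8.16 CPM in Veh to 18.9 to 23.4 CPM in Rosi (1.46 ± 0.15, adjusted p = 0.000164). Pla2g16, a phospholipase of adipocytes that dampens lipolysis, rose from 30.4 to 34.5 CPM to 50.5 to 65.2 CPM (0.81 ± 0.13, adjusted p = 0.00627), a call lost without polysome Veh replicate 2 (adjusted p = 0.0761).

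**Figure D2:**
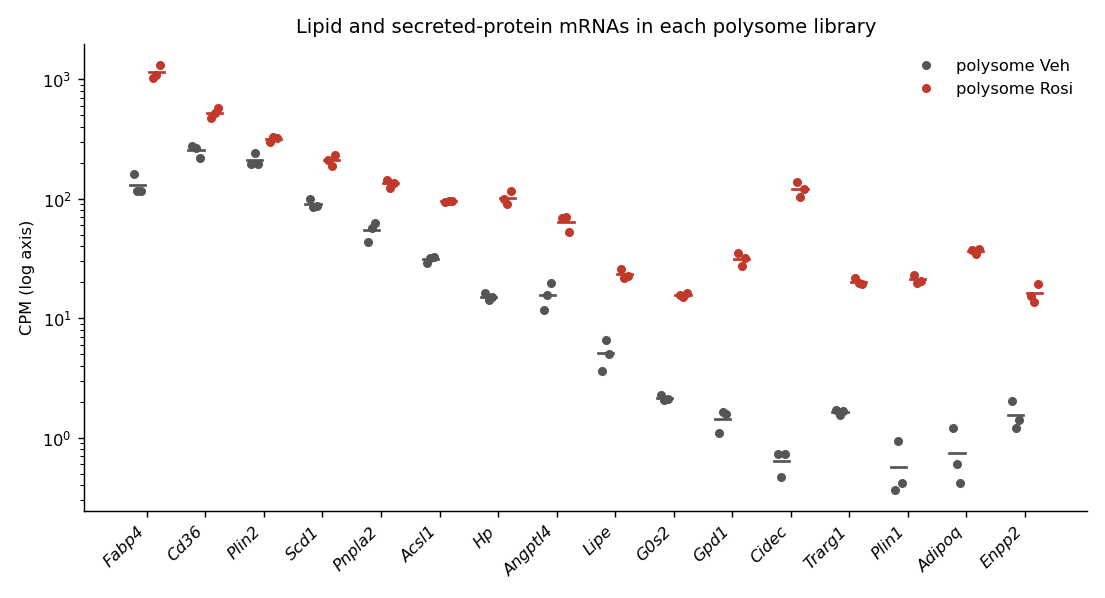
Values of 16 raised genes in each of the 3 polysome Veh (grey) and 3 polysome Rosi (red) libraries, in CPM on a log axis, with a bar at the mean of each group. In every gene the Rosi points lie above the Veh points, by about 100 CPM for Plin2 and from under 1 to over 100 CPM for Cidec.

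Enzymes of most steps from glycerol phosphate to triglyceride were among the raised genes, and no lipin was. Of 23 genes of triglyceride synthesis tested, 7 rose (30.4%, against 0.655% of all tested genes called) and none fell. The list's median log2 fold change was 0.02 against −0.01 over all genes. Gpd1, which makes glycerol 3-phosphate, read 1.09, 1.64 and 1.57 CPM in Veh and 35.2, 27.1 and 32.1 CPM in Rosi (4.44 ± 0.18, adjusted p = 3.02e-08). Acsl1, which activates fatty acids, varied little within each group, at 29.1, 32.1 and 32.3 CPM in Veh and 93.6, 96.0 and 96.6 CPM in Rosi (1.60 ± 0.11, adjusted p = 2.56e-06).

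The acyltransferases that follow had smaller log2 fold changes. Gpat3, which adds the first acyl chain, rose from 2.88 to 4.37 CPM to 8.16 to 11.7 CPM (1.32 ± 0.21, adjusted p = 0.00692), and Agpat2, which adds the next, from 22.5 to 29.8 CPM to 44.7 to 58.8 CPM (0.94 ± 0.14, adjusted p = 0.00476). Dgat1 and Dgat2, the enzymes that complete triglyceride, had log2 fold changes of 0.76 ± 0.12 (adjusted p = 0.00866) and 0.86 ± 0.17 (adjusted p = 0.0350). The Dgat2 call was lost in 4 of the 6 fits that left out a library, with an adjusted p of up to 0.172 without polysome Veh replicate 2, while that of Dgat1 was kept in all 6. Pcx, pyruvate carboxylase, which feeds glyceroneogenesis and the citric acid cycle, rose from 4.37 to 4.95 CPM to 12.4 to 14.0 CPM (1.45 ± 0.15, adjusted p = 0.000188). It was the only called gene of the 49 tested for branched-chain amino acid breakdown, pyruvate entry and the citric acid cycle (2.04%, against 0.655% of all tested genes called). In that list 2 were called without polysome Veh replicate 1.

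Of 17 genes of fatty acid uptake and binding, 3 rose (17.6%, against 0.655% of all tested genes called) and none fell. The median log2 fold change was 0.08, and 5 were called without polysome Veh replicate 1. Fabp4 read 162, 115 and 117 CPM in Veh and 1029, 1097 and 1313 CPM in Rosi (3.11 ± 0.16, adjusted p = 1.45e-07). Angptl4, a secreted inhibitor of lipoprotein lipase, read 11.8, 15.8 and 19.7 CPM in Veh and 69.1, 70.9 and 52.5 CPM in Rosi (2.02 ± 0.18, adjusted p = 4.92e-05). Cd36 (chromosome 5, 17781690 to 17888801) was plentiful in both groups, at 275, 268 and 220 CPM in Veh and 471, 527 and 575 CPM in Rosi (1.03 ± 0.12, adjusted p = 0.000599), again without overlap. Dbi, the acyl-CoA binding protein, had a log2 fold change of 0.65 ± 0.14 and an adjusted p of 0.0827, and Lpl, lipoprotein lipase itself, one of 0.62 ± 0.14 and an adjusted p of 0.102, so neither was called.

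Genes that burn or build fatty acids were mostly below the threshold. Of 31 genes of mitochondrial fatty acid oxidation 1 was called (3.23%), of 23 peroxisomal genes 1 (4.35%), and of 21 genes of fatty acid synthesis and desaturation 1 (4.76%). Over all tested genes 0.655% were called. The median log2 fold changes of the lists were 0.14, 0.08 and 0.05. Without polysome Veh replicate 1, 2 genes of mitochondrial oxidation were called. Scd1, the stearoyl-CoA desaturase, read 100, 85.1 and 87.8 CPM in Veh and 212, 189 and 234 CPM in Rosi (1.21 ± 0.12, adjusted p = 0.000124), while Scd2, its close relative, had a log2 fold change of 0.16 ± 0.10 (95% interval −0.06 to 0.38). Abcd2, a transporter of very long acyl chains into the peroxisome, rose from 6.33 to 6.87 CPM to 11.9 to 12.8 CPM (0.91 ± 0.14, adjusted p = 0.00602). Cpt1b, the muscle-type carnitine palmitoyltransferase, had no read in the Veh libraries and 18, 28 and 19 in the Rosi libraries, at least 19.4-fold higher when Veh is set at 3 reads in all, but 93.7% of the 31-base strings of its main transcript also occur in the overlapping gene Gm44502, so its reads cannot be assigned to it alone. Acaa2 and Acadl, enzymes of the mitochondrial oxidation spiral, had log2 fold changes of 0.41 and 0.37 and adjusted p-values of 0.370 and 0.507.

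Of 24 thermogenic genes listed, 11 passed the filter on low counts and were tested. Among these, 3 rose (27.3%, against 0.655% of all tested genes called) and none fell. The median log2 fold change was 0.21, and leaving out any 1 library also gave 3 raised genes. They were Cpt1b, Slc36a2 and Kcnk3. Slc36a2, an amino acid transporter found on brown adipocytes (chromosome 11, 55158470 to 55185077), had no read in Veh and 44, 23 and 31 in Rosi, at least 29.3-fold higher. Kcnk3, a potassium channel of the plasma membrane, read 0.0520, 0.187 and 0.366 CPM in Veh and 3.34, 3.17 and 2.53 CPM in Rosi (3.86 ± 0.44, adjusted p = 0.000453). Prdm16, a transcriptional regulator of brown fat, lay on the other side of 0, at −0.62 ± 0.28 with an adjusted p of 1. Genes without Veh reads were also set at their bound. This could not change the medians given for these lists or for the 85 raised genes, because the bounds lie above those medians.

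The mRNAs of secreted adipocyte proteins formed another block. Of 24 tested, 6 rose (25%, against 0.655% of all tested genes called) and none fell, with a median log2 fold change of 0.30. Adipoq, the hormone adiponectin, read 1.20, 0.607 and 0.418 CPM in Veh and 37.2, 34.4 and 38.3 CPM in Rosi (5.61 ± 0.23, adjusted p = 3.02e-08). Retn, the hormone resistin, read 1.09, 0.935 and 0.209 CPM in Veh and 4.96, 6.29 and 5.90 CPM in Rosi (2.91 ± 0.36, adjusted p = 0.00111). Enpp2, autotaxin, which makes lysophosphatidic acid, read 2.03, 1.21 and 1.41 CPM in Veh and 15.4, 13.6 and 19.4 CPM in Rosi (3.37 ± 0.22, adjusted p = 2.56e-06). In these 3 genes the lowest Rosi library was more than 4 times the highest Veh library.

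Itih5, a protein that binds hyaluronan, had 2, 0 and 1 reads in Veh and 25, 33 and 28 in Rosi, a ratio of 25.7 (95% exact interval 8.51 to 127). Apoc1, an apolipoprotein, had 14 reads in Veh and 91 in Rosi (2.52 ± 0.50, adjusted p = 0.0397), and its call was lost whichever library was left out, with adjusted p-values of 0.0571 to 0.192. Neither the leptin gene Lep nor the adipsin gene Cfd passed the filter on low counts.

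Secreted proteins outside the list were raised as well. Hp (chromosome 8, 109575128 to 109579172), which binds free haemoglobin, read 16.2, 14.3 and 15.0 CPM in Veh and 99.8, 90.0 and 115 CPM in Rosi (2.74 ± 0.13, adjusted p = 9.93e-08). Rarres2, the chemoattractant chemerin, read 17.4, 12.0 and 10.7 CPM in Veh and 37.2, 41.0 and 44.9 CPM in Rosi (1.61 ± 0.17, adjusted p = 0.000232), with 31.8% of its 31-base strings shared with the neighbouring gene Lrrc61. Lrg1, a plasma glycoprotein, rose from 0.471 to 0.781 CPM to 2.86 to 3.25 CPM (2.25 ± 0.30, adjusted p = 0.00161), and Htra3, a secreted serine protease, from 8.12 to 10.4 CPM to 20.5 to 27.4 CPM (1.32 ± 0.15, adjusted p = 0.000453). Serpina3c, a protease inhibitor, was called at 2.19 ± 0.44 (adjusted p = 0.0443) but lost the call in 5 of the 6 fits that left out a library, with an adjusted p of up to 0.353 without polysome Veh replicate 2.

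Prl2c3 and Prl2c2, proliferins of the prolactin family that lie 196046 bases apart on chromosome 13, had log2 fold changes of 1.76 ± 0.24 (adjusted p = 0.00228) and 1.39 ± 0.28 (adjusted p = 0.0443). They share 86.0% and 87.6% of their 31-base strings with each other, so how the reads divide between them is uncertain, and the Prl2c2 call was lost in 4 fits, with an adjusted p of up to 0.385 without polysome Veh replicate 2. The receptor of prolactin, Prlr, was among the most raised of all: 4, 1 and 0 reads in Veh stood against 84, 71 and 62 in Rosi (5.17 ± 0.52, adjusted p = 0.000164). Of its Rosi reads, 93.5% were assigned to the coding transcript Prlr-202, and the 5 Veh reads are too few for a comparison of isoforms.

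Arxes1 and Arxes2, adipocyte proteins of the endoplasmic reticulum related to the signal peptidase subunit Spcs3, lie 38012 bases apart on the X chromosome, and both rose. Arxes1 read 1.24, 1.09 and 0.768 CPM in Veh and 8.27, 7.70 and 9.24 CPM in Rosi (3.00 ± 0.23, adjusted p = 1.05e-05). Arxes2 read 12.6, 9.15 and 12.2 CPM in Veh and 38.6, 31.9 and 42.4 CPM in Rosi (1.73 ± 0.15, adjusted p = 4.99e-05). They share 40.8% and 42.1% of their 31-base strings. None of the 5 signal peptidase subunits tested with them was called, and Spcs1 and Spcs3 had log2 fold changes of 0.14 ± 0.11 and −0.07 ± 0.12.

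Of 29 genes of insulin signalling and glucose transport, 2 rose (6.90%, against 0.655% of all tested genes called), with a median log2 fold change of 0.11, and 1 was called in each fit that left out a library other than polysome Veh replicate 1. They were Pde3b and Trarg1, a membrane protein of vesicles that carry the glucose transporter, which read 1.72, 1.54 and 1.67 CPM in Veh and 21.5, 19.7 and 19.5 CPM in Rosi (3.61 ± 0.16, adjusted p = 4.81e-08). Slc2a4, the insulin-regulated glucose transporter itself, read 0, 0.0467 and 0.418 CPM in Veh and 0.599, 0.564 and 0.694 CPM in Rosi. Its groups did not overlap, but at 1.98 ± 0.74 and an adjusted p of 0.855 it was not called. Outside these lists, Steap4, a metalloreductase of the cell surface, rose from 0.14 to 0.366 CPM to 4.49 to 5.35 CPM (4.06 ± 0.33, adjusted p = 2.53e-05).

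Of 44 transcription factors and coregulators of the adipocyte programme tested, 1 rose (2.27%) and none fell, against 0.655% of all tested genes called. The median log2 fold change was 0.02, and leaving out a library gave 0 to 3 calls, with 3 without polysome Veh replicate 1. The raised gene was Nr1h3, the oxysterol receptor LXRα, at 7.60, 7.80 and 8.58 CPM in Veh and 14.8, 12.1 and 14.2 CPM in Rosi (0.76 ± 0.14, adjusted p = 0.0271). Its call was lost in 3 of the 6 fits that left out a library, with an adjusted p of up to 0.172 without polysome Veh replicate 2. Pparg, the receptor that Rosi binds, read 11.9, 11.4 and 10.1 CPM in Veh and 12.5, 15.4 and 15.5 CPM in Rosi. Its groups did not overlap, yet at 0.37 ± 0.14 (95% interval 0.05 to 0.68) and an adjusted p of 0.936 it did not pass the test. Srebf1, a regulator of lipid synthesis, gave 0.34 ± 0.11 with an adjusted p of 0.637. Nfe2l3, a leucine zipper factor outside the list, was called at 2.36 ± 0.40 (adjusted p = 0.0115), and lost the call in 3 fits, with an adjusted p of up to 0.105 without polysome Veh replicate 2.

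**Figure D3:**
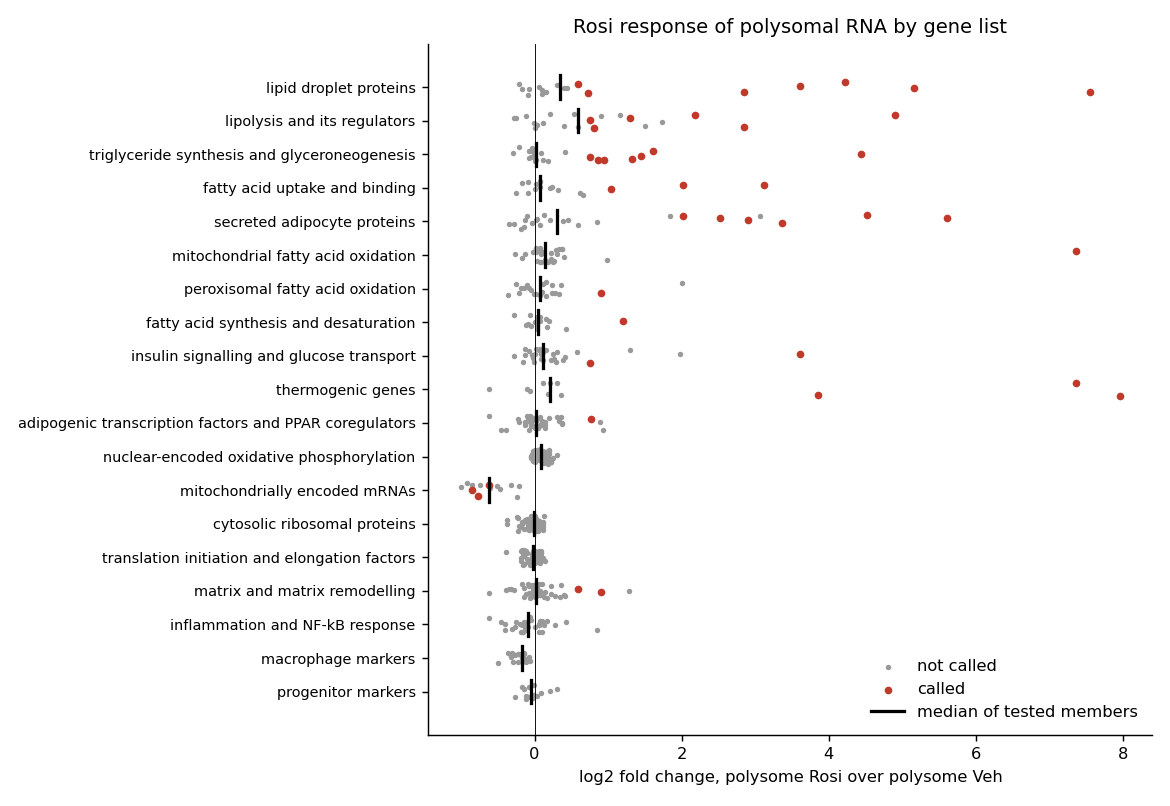
Log2 fold change of polysome Rosi over polysome Veh for the tested members of 19 gene lists, with called members in red, other members in grey and a black bar at the median of each list. The red points are mostly in the lists of lipid storage and secreted proteins, and the 13 mitochondrially encoded mRNAs all lie below 0.

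Of the 88 called genes, 48 were in none of the lists. Some of these encode enzymes. Ephx2, a soluble epoxide hydrolase, read 6.04, 5.75 and 5.44 CPM in Veh and 16.9, 16.7 and 17.9 CPM in Rosi (1.57 ± 0.14, adjusted p = 4.39e-05). Cdo1, which starts the breakdown of cysteine, read 15.5, 12.5 and 13.3 CPM in Veh and 35.4, 30.9 and 39.8 CPM in Rosi (1.35 ± 0.14, adjusted p = 0.000164). Fah, the last enzyme of tyrosine breakdown, read 7.08, 7.80 and 9.73 CPM in Veh and 21.8, 21.3 and 20.2 CPM in Rosi (1.35 ± 0.14, adjusted p = 0.000235). These 3 enzymes were called whichever library was left out.

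Mgst1 read 130, 104 and 102 CPM in Veh and 187, 187 and 232 CPM in Rosi (0.84 ± 0.13, adjusted p = 0.00618), a call lost without polysome Veh replicate 2 (adjusted p = 0.0763). Car5b, a mitochondrial carbonic anhydrase, had a log2 fold change of 1.30 ± 0.17 (adjusted p = 0.0013). Car3, a cytosolic carbonic anhydrase of fat and muscle, was called at 4.35 ± 0.84 on 4 Veh and 97 Rosi reads (adjusted p = 0.0323), and lost the call in 5 of 6 fits, with an adjusted p of up to 0.110 without polysome Rosi replicate 3. The alcohol dehydrogenase Adh1 and the aldehyde dehydrogenase Aldh1a7 had log2 fold changes of 1.46 ± 0.23 (adjusted p = 0.00602) and 2.08 ± 0.33 (adjusted p = 0.00753), and both calls were lost without polysome Veh replicate 2 (adjusted p of 0.0574 and 0.0627). Sptlc3, a subunit of the enzyme that starts sphingolipid synthesis, had no read in Veh and 15, 14 and 13 in Rosi, at least 12.6-fold higher, a call lost without polysome Veh replicate 2 (adjusted p = 0.0656).

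Without polysome Veh replicate 1, 3 of the 51 matrix genes tested were called. In the fit of all 6 libraries 2 rose (3.92%, against 0.655% of all tested genes called), and the median log2 fold change was 0.02. They were Col6a2, at 24.4, 23.6 and 24 CPM in Veh and 49.9, 41.6 and 44.0 CPM in Rosi (0.90 ± 0.11, adjusted p = 0.00118), and Col6a1, at 43.6, 39.0 and 43.1 CPM in Veh and 64.6, 63.2 and 62.3 CPM in Rosi (0.59 ± 0.11, adjusted p = 0.0199). Both encode chains of collagen VI, the microfibrillar collagen around adipocytes, and lie 85162 bases apart on chromosome 10. The Col6a1 call was lost in 4 fits that left out a library, with an adjusted p of up to 0.192 without polysome Veh replicate 2. Timp3, an inhibitor of matrix proteases, had a log2 fold change of −0.34 ± 0.10 and an adjusted p of 0.422.

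None of the 34 genes of inflammation and the NF-κB response was called (median log2 fold change −0.09), near the 0.655% called over all tested genes. At an unadjusted p under 0.05, 2 lay above 0 and 2 below. Those below were Tnfaip3, which damps NF-κB, at −0.46 ± 0.14 (adjusted p = 0.536) and Il1rn at −0.40 ± 0.13 (adjusted p = 0.588). Those above were Ccl11 at 0.43 ± 0.14 (adjusted p = 0.564) and Lcn2 at 0.85 ± 0.30 (adjusted p = 0.708). Outside that list, 3 immune genes rose: Ubd, a ubiquitin-like protein induced by cytokines, with 1, 0 and 0 reads in Veh and 22, 29 and 37 in Rosi, a ratio of 78.9 (95% exact interval 13.8 to 3152), Iigp1, an interferon-induced GTPase (1.70 ± 0.32, adjusted p = 0.0242), and Cd1d1, which presents lipids to NKT cells (0.90 ± 0.16, adjusted p = 0.0173). The calls of Iigp1 and Cd1d1 were each lost in 4 fits, with adjusted p-values of up to 0.179 without polysome Veh replicate 2 and 0.0789 without polysome Rosi replicate 3. A share of 33.3% of the 31-base strings of Cd1d1 also occurs in other genes, mostly its neighbour Cd1d2.

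None of the 26 macrophage markers tested was called either, but 26 of 26 had a log2 fold change below 0, with a median of −0.17. Over all tested genes, 6407 of 13436 lay above 0. Of the 26, 5 had an unadjusted p under 0.05, against 4.73% of all tested genes in either direction. The groups did not overlap in 3 of them, against 8.95% of all tested genes. Among these were C1qb (−0.32 ± 0.12, adjusted p = 0.864) and Cx3cr1 (−0.50 ± 0.20, adjusted p = 0.962). Lyz2, the most abundant of them, read 17148, 15010 and 11723 CPM in Veh and 10695, 11171 and 14324 CPM in Rosi, so its groups overlapped. The summed macrophage markers, of which Lyz2 is the largest part, ranged from 20488 to 25931 CPM in Veh and from 18509 to 23117 CPM in Rosi, which overlap too. Of the 17 genes of lipid-associated macrophages, Plin2 alone was called (5.88%, against 0.655% of all tested genes). The median was −0.10, with 2 called without polysome Veh replicate 1. The summed markers of endothelium, smooth muscle and pericytes, progenitors, mesothelium, and neutrophils and dendritic cells likewise overlapped between the groups with no member called. Those of lymphocytes, at 1.07 to 1.52 CPM in Veh and 1.58 to 1.65 CPM in Rosi, did not overlap, with neither of the 2 members tested called. Those of the epididymal epithelium reached 156 to 258 CPM in Veh and 134 to 161 CPM in Rosi, with 5 of 9 members at 0. The part of cell composition in the raised genes was not tested.

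The remaining raised genes had diverse roles. B3galt2, a galactosyltransferase, read 0.104, 0.0467 and 0.0523 CPM in Veh and 4.07, 3.38 and 2.68 CPM in Rosi (5.53 ± 0.45, adjusted p = 2.43e-05). Sntb1, a syntrophin of the dystrophin complex, read 0.312, 0.187 and 0.575 CPM in Veh and 3.00, 4.12 and 3.57 CPM in Rosi (3.30 ± 0.37, adjusted p = 0.000398). Nabp1, a single-strand DNA binding protein, was more abundant and rose from 23.7 to 26.2 CPM to 43.3 to 50.0 CPM (0.86 ± 0.12, adjusted p = 0.00181). These 3 genes kept their call whichever library was left out, as did Tmem182, Wdr93, Ankef1 and Lrrc39.

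Others of this group lost their call when a library was left out. They were Fam13a (2.06 ± 0.32), whose human counterpart lies in a region linked to fat distribution, and Rgcc (0.82 ± 0.13), a regulator of the cell cycle, each lost without polysome Veh replicate 2, and Cobll1 (0.67 ± 0.12), Rnf144a (1.17 ± 0.21), a ubiquitin ligase, Cldn15 (0.81 ± 0.15), a claudin of tight junctions, Chchd10 (0.79 ± 0.14), a mitochondrial protein, Pdzd2 (2.04 ± 0.38), Fam83a (2.48 ± 0.47), Plbd1 and Paqr9 (2.42 ± 0.48), lost in 2 to 6 of the 6 fits. Their adjusted p-values without polysome Veh replicate 2, which led to the loss in each, ran from 0.0596 for Fam13a to 0.217 for Fam83a.

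For several raised genes the assignment of reads is uncertain. In 6 of the 88 called genes more than 50% of the 31-base strings of the main transcript occur in another gene, and 43 genes share none. The processed pseudogene Gm4294 had no read in Veh and 66, 27 and 116 in Rosi, at least 62.5-fold higher, but 99.0% of its strings occur in Rpl15, a ribosomal protein gene whose log2 fold change was 0.01 ± 0.12, and in input the log2 fold change of Gm4294 was 0.06. Pakap shares 89.6% of its strings with Akap2, with which it overlaps, and had a log2 fold change of 2.02 ± 0.34 (adjusted p = 0.0123), lost without polysome Veh replicate 2 (adjusted p = 0.138) and without polysome Rosi replicate 2 (0.0678). Arhgap39, a GTPase-activating protein, had 5, 1 and 0 reads in Veh and 86, 13 and 90 in Rosi (4.75 ± 0.88, adjusted p = 0.0239), with polysome Rosi replicate 2 far below the other Rosi libraries. In Rosi 88.5% of its reads were assigned to the coding transcript Arhgap39-201, which received none in Veh or in that replicate, and its call was lost without polysome Veh replicate 2 (adjusted p = 0.249) and without polysome Rosi replicate 3 (0.0615).

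The position and length of the raised genes were also recorded. There were 6 pairs of called genes within 200 kilobases of each other: Plin1 with Wdr93, Plin4 with Lrg1, Pla2g16 with Lgals12, Arxes1 with Arxes2, Col6a1 with Col6a2 and Prl2c2 with Prl2c3. The gap between Pla2g16 and Lgals12 was 8115 bases, and that between Plin4 and Lrg1 9875 bases. The main transcripts of raised nuclear coding genes had a median length of 2536 bases against 2766 for all tested nuclear coding genes, a median coding length of 1145 against 1272 bases, and median 5′ and 3′ UTRs of 156 and 896 bases against 157 and 956. The quartiles of each measure overlapped, and no test was made.

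At the level of single transcripts, 17 of 27780 tested were called (0.0612%), 16 raised (0.0576%) and 1 lowered (0.0036%), and 816 (2.94%) had an unadjusted p under 0.05. Cidec gave 2 of them. Cidec-202 read 0.612, 0.419 and 0.732 CPM in Veh and 100, 78.7 and 93.3 CPM in Rosi, and Cidec-201 read 0.116, 0 and 0 CPM in Veh and 32.2, 23.9 and 27.2 CPM in Rosi. With so few Veh reads, a difference in isoform shares was not tested. The other raised transcripts were the main ones of Trarg1, Hp, Acsl1, Gpd1, G0s2, Fabp4, Adipoq, Enpp2, B3galt2, Scd1 and Arxes1, along with Plin1-206 and Pnpla2-201. Plin1-206 took 51.2, 11.3 and 100% of the few Plin1 reads in the Veh libraries and 74.2, 63.4 and 79.7% in the Rosi libraries, which overlap. Pnpla2-201, annotated as a target of nonsense-mediated decay with a coding sequence of 210 bases, took 62.0% of the Pnpla2 reads in Veh and 64.4% in Rosi (1.36 ± 0.12, adjusted p = 0.0455), whereas the coding transcript Pnpla2-203 took 26.3% and 20.4% and was not called (0.98, adjusted p = 1). The 3 Pparg transcripts with more than 5% of its reads had log2 fold changes of −0.04, 1.04 and 0.77, none of them called.

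The remaining 2 calls came from Zfp292, a zinc finger gene that was not called as a gene (−0.10 ± 0.14, adjusted p = 1) and is named here after its values were seen. All its reads in polysome Veh, 301, 258 and 260, were assigned to Zfp292-202, and all in polysome Rosi, 291, 303 and 269, to Zfp292-201. In input the 177 and 265 Veh reads were assigned to Zfp292-201, while among the Rosi libraries 179 and 175 reads were assigned to Zfp292-202 and the 159 of the other library to Zfp292-201. The transcripts share 99.3% and 99.7% of their 31-base strings, with 73 strings found only in Zfp292-201 and 28 only in Zfp292-202. Plin4, whose transcripts differ by 1 such string, was divided in the same all-or-none way: polysome Rosi replicate 2 assigned all its reads to Plin4-201 and the other Rosi libraries all of theirs to Plin4-202. The part of read assignment in the transcript calls was not tested.

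The only genes that fell were mt-Co1, mt-Nd1 and mt-Atp8, which the mitochondrial genome encodes. Such mRNAs are made and translated inside mitochondria by mitochondrial ribosomes. All 13 of them had a log2 fold change below 0, from −1.0 for mt-Nd3 to −0.22 for mt-Nd4l, with a median of −0.62, whereas 6407 of all 13436 tested genes lay above 0. Of the 13, 10 had an unadjusted p under 0.05 in the same direction (4.73% of all genes did so in either direction). mt-Co1, a subunit of complex IV and the most abundant, read 4570, 4214 and 4161 CPM in Veh and 2805, 2429 and 3235 CPM in Rosi (−0.62 ± 0.12, adjusted p = 0.0383). mt-Nd1, which belongs to complex I, read 821, 666 and 646 CPM in Veh and 409, 351 and 503 CPM in Rosi (−0.77 ± 0.14, adjusted p = 0.0269). mt-Atp8, of the ATP synthase, read 65.8, 50.8 and 58.0 CPM in Veh and 29.6, 27.4 and 40.7 CPM in Rosi (−0.85 ± 0.16, adjusted p = 0.0254). In these 3 genes the groups did not overlap, which held for 5 of the 13. It also held for 8.95% of all tested genes (4.37% with Rosi below).

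The calls of the 3 mitochondrial falls depended on which library was left out. The median log2 fold change of the 13 mitochondrially encoded mRNAs ran from −0.78 to −0.52 over those fits. The mitochondrially encoded mRNAs made up 1.42, 1.32 and 1.15% of reads in polysome Veh and 0.825, 0.757 and 1.05% in polysome Rosi, where replicate 3 was nearest to Veh. Each call was lost in 3 of the 6 fits that left out a library, without polysome Veh replicate 2 (adjusted p of 0.189, 0.111 and 0.0636 for mt-Co1, mt-Nd1 and mt-Atp8), without polysome Rosi replicate 1 (0.180, 0.0997 and 0.117) and without polysome Rosi replicate 2 (0.382, 0.193 and 0.206). Without polysome Rosi replicate 3, 6 of the 13 were called, and without polysome Veh replicate 3, 7. A share of 63.9% of the 31-base strings of mt-Co1 also occurs in nuclear copies such as Gm13340. Among the nuclear genes of oxidative phosphorylation, none of 76 tested was called, near the 0.655% called over all tested genes. Their median log2 fold change was 0.08, and 66 lay above 0, as did 6407 of all 13436 tested genes. Among the 66 was Cycs, cytochrome c, at 0.31 ± 0.13 (adjusted p = 0.985).

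**Figure D4:**
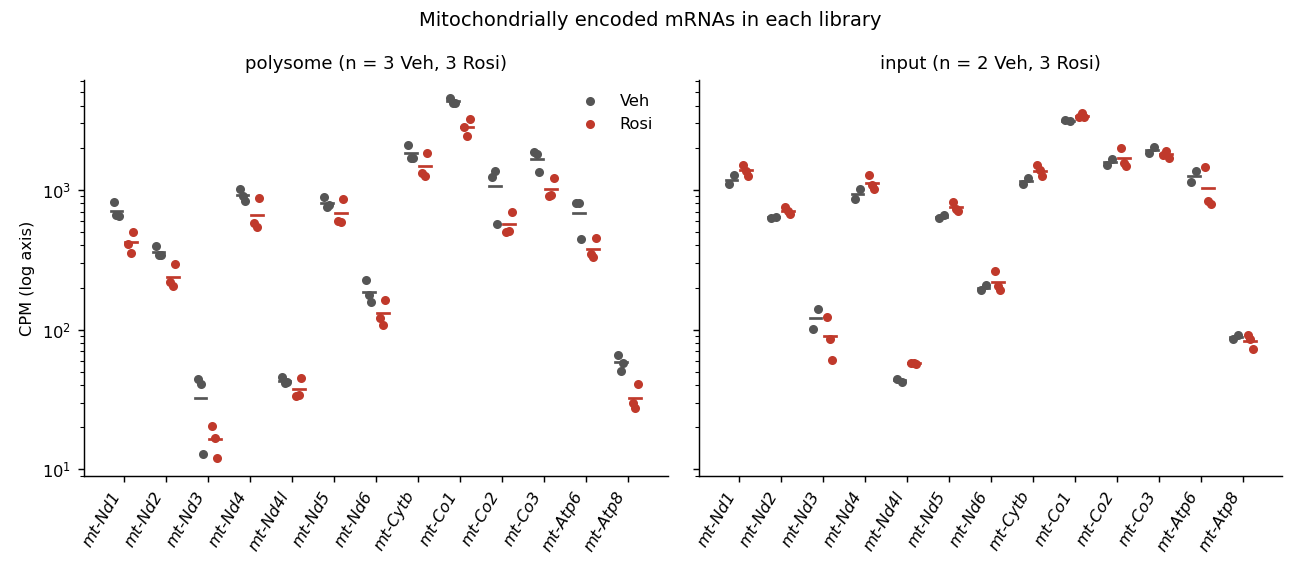
Values of the 13 mitochondrially encoded mRNAs in each library, in CPM on a log axis, for Veh (grey) and Rosi (red) in polysome (left) and input (right), with a bar at each group mean. In polysome the Rosi means lie below the Veh means for all 13, whereas in input the median log2 fold change was 0.14.

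The translation machinery gave no call in the fit of all 6 libraries. Of 82 cytosolic ribosomal proteins tested none was called, with a median log2 fold change of −0.01, the same as over all genes, and values between −0.38 and 0.13. The lowest by p were Rplp1 and Rplp0 of the ribosomal stalk, at −0.38 ± 0.11 (adjusted p = 0.370) and −0.37 ± 0.12 (adjusted p = 0.602), and 3 of the 82 had an unadjusted p under 0.05. Without polysome Veh replicate 1, 1 ribosomal protein gene and 1 nuclear gene of oxidative phosphorylation were called. Of 52 initiation and elongation factors none was called (median −0.02). Over all tested genes 0.655% were called, so the absence of calls does not set lists of this size apart. Pabpc1, the poly(A)-binding protein, read 462, 445 and 440 CPM in Veh and 343, 362 and 328 CPM in Rosi, without overlap but with an adjusted p of 0.159 (−0.39 ± 0.10). Immediate early genes, which fresh medium induces, gave no call among 28, with a median of −0.12. Without polysome Veh replicate 1, 3 of them were called, and the median ran from −0.27 to −0.03 over the fits that left out a library.

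The rise of the 85 genes on polysomes was then set beside their change in total RNA in a joint fit of polysome and input, in which 2 of the 3 input Veh libraries held identical values and were counted as 1. The joint fit gave a median log2 fold change of 2.09 in polysome and 1.95 in input for the raised genes, and 84 of the 85 had a value above 0 in input as well. Cidec, for example, had log2 fold changes of 7.56 ± 0.20 in polysome and 7.73 ± 0.24 in input, and Gpd1 4.45 ± 0.19 and 4.64 ± 0.21. The exception was Arhgap39, at 4.76 ± 0.95 in polysome and −0.76 ± 1.35 in input.

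The difference between the responses was tested as the interaction of fraction and treatment, in which 0 of 14042 genes were called (0%), with 961 at an unadjusted p under 0.05 in edgeR (6.84%) and 16 called by DESeq2. Leaving out polysome Veh replicate 1 gave 24 calls, 8 above and 16 below. Among the 88 genes called in polysome the smallest adjusted p was 0.570, and 14 had an unadjusted p under 0.05. Fabp4 was among these, with log2 fold changes of 3.12 ± 0.13 in polysome and 2.66 ± 0.16 in input, a difference of 0.46 (95% interval 0.06 to 0.86, adjusted p = 0.719). So were Acsl1, with a difference of −0.33 (−0.65 to −0.01), Col6a2, with 0.54 (0.11 to 0.96), and Dgat1, with 0.42 (0.05 to 0.79), all with the same adjusted p. The largest differences among the 14 were in genes with 0 to 6 reads over the polysome Veh group. They were those of Gm4294 at 9.01, Arhgap39 at 5.52, Slc36a2 at 4.03 and Cpt1b at 4.00, again with an adjusted p of 0.719.

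Over all genes, the smallest interaction p-values below 0 belonged to Pabpc1 at −0.83 ± 0.13 (adjusted p = 0.163), Spop, an adaptor of a ubiquitin ligase, at −0.74 ± 0.13 (0.221), mt-Nd1 at −0.98 ± 0.20, mt-Co1 at −0.73 ± 0.15 and Ccnyl1, a cyclin-like gene, at −0.66 ± 0.15. mt-Nd1 read 1096 and 1273 CPM in input Veh and 1510, 1370 and 1256 CPM in input Rosi, groups that overlap, against groups that do not in polysome. Above 0 they belonged to AU041133 at 2.12 ± 0.44, Samd9l, an antiviral factor, at 0.73 ± 0.16, Rhobtb3 at 0.71 ± 0.17, Cenph, a kinetochore protein, at 0.93 ± 0.24, and Strn3, a striatin scaffold, at 0.55 ± 0.14. None of these passed the test.

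**Figure D5:**
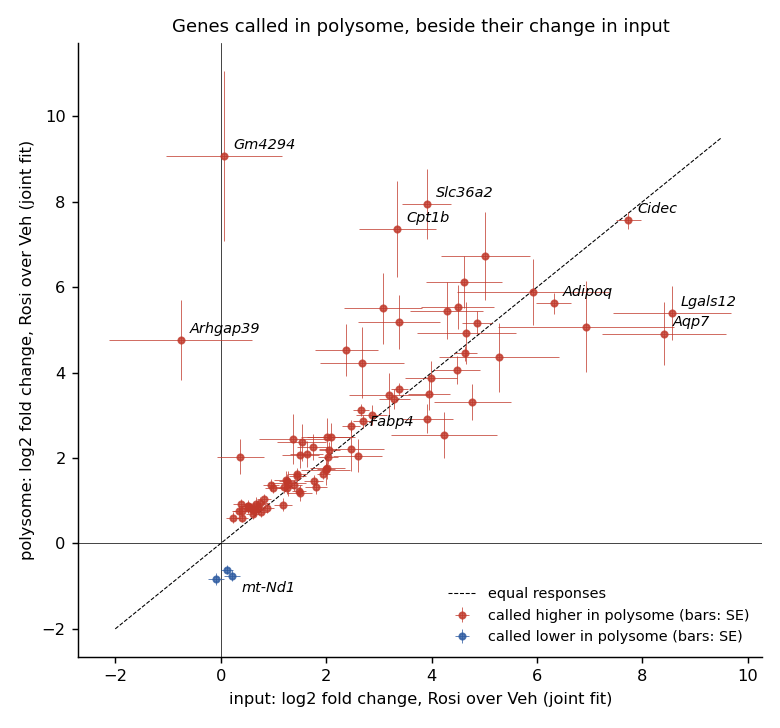
The 88 genes called in polysome, with their log2 fold change of Rosi over Veh in input on the horizontal axis and in polysome on the vertical axis, both from the joint fit, with bars of 1 SE and a dashed line of equal responses. Most raised genes (red) lie near the line. Arhgap39 and Gm4294 stand far above it at −0.76 and 0.06 in input, as do Slc36a2 and Cpt1b at 3.91 and 3.35. Aqp7 and Lgals12 lie far below it at 8.41 and 8.56 in input. The 3 mitochondrial genes (blue) are below 0 in polysome and between −0.09 and 0.22 in input.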

How the data were processed

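Poly(A) libraries of polysomal and input RNA were sequenced as paired reads of 150 bases. Demultiplexing by the authors used bcl2fastq 2.17, followed by FastQC, Salmon (mm10) for quantification and DESeq2 for testing. Versions of the last 3 tools and the strandedness are not given in the sources used here. The authors deposited estimated counts per transcript, the values tested here, and TPM, used for levels between genes and in alternatives. Of 117135 transcripts, 115973 matched GENCODE M21, and 0.381 to 0.464% of reads did not. The sums of estimated counts over the transcripts of 35523 genes were rounded to whole numbers. CPM uses effective library sizes taken over 11 libraries together.

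The 6 polysome libraries were fitted in edgeR 4.0.16 under R 4.3.3. Genes passing filterByExpr were normalized by TMM and compared by the two-sided quasi-likelihood F test, and p-values were adjusted by Benjamini-Hochberg over all genes tested. The SE is the size of the log2 fold change divided by the root of F. The interaction was fitted on polysome and input together. A fold against a group without reads puts that group at 3 counts, and ratios on 1 to 3 counts have exact 95% intervals from the binomial distribution. Both cover counting error alone. The fits were tested on simulated data. Shared sequence was counted as 31-base strings of the main transcript found in any other gene.

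Named were Pparg, every called gene with a symbol other than a Gm number or Rik name, the members of each list with the smallest p (at most 4), the mitochondrially encoded mRNAs, and, for the interaction, 5 genes a side, by p, among those whose mean log2 CPM reached 1. Gm4294, Zfp292, Slc2a4, Lyz2, Pdgfra and genes set beside them were named after their values were seen. Of the genes this rule takes in, 2 are not reported here. The members and the gene lists were chosen with earlier results of these data known. Of 6 examples that the study chose on these samples, which are no independent evidence, 5 were tested and 5 rose. Alternatives were other factors (RLE, upper quartile), other count filters (none, or 10 counts throughout a group), DESeq2 1.42.0, omission of each library, a block for the replicate number, the libraries as deposited, all groups in 1 fit, limma 3.58.1 on log2 of TPM plus 1 or plus 0.1, and omission of the mitochondrially encoded genes.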

Additional observations from a re-analysis of the deposited data

How the results depend on the processing

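The 88 calls became 89 with RLE and 89 with upper quartile factors, 120 with DESeq2 (109 raised, 11 lowered), 189 without a count filter (147 and 42), 37 with limma on log2 of TPM plus 1 and 35 with TPM plus 0.1, and 55 to 179 with a library left out, without polysome Veh replicate 2 and replicate 1 respectively. Of the 88 genes, 38 were called in every alternative that tested them, and none turned direction in any of the 16. Some of the 38 were tested in fewer than 16. The 17 transcript calls became 29 with at least 10 counts in every library of a group, 177 with DESeq2 and 5 to 11 with a library left out. The interaction gave 0 calls, 16 with DESeq2, 2 with all libraries as deposited and 0 to 24 with a library left out (24 without polysome Veh replicate 1). The causes were not tested.

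With the replicate number as a block, 102 genes were called (89 raised, 13 lowered), 83 of them among the 88, along with 1 transcript and 0 genes for the interaction. Deviations of libraries with the same number correlated at −0.29, 0.07 and −0.19, and those of the other pairs at −0.10 to 0.29. Deviations within a group of 3 sum to 0, so these values cannot show whether libraries of the same number share a culture. Input and polysome libraries of the same treatment and number correlated at −0.07 to 0.11. Genes under about 1 CPM rest on few reads, and 13 of the 88 had at most 3 reads over the Veh group.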
